A study of Mus musculus with 8 samples.

Results

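The nuclear-encoded genes of the mitochondrial respiratory chain were followed in 8 libraries of mouse gut RNA. Members were chosen by name alone, as every gene symbol that begins as Nduf (subunits A, B, C, S and V), Uqcr, Cox4 to Cox8 or Atp5, together with the 4 succinate dehydrogenase genes. The rule found 84 of the 23282 genes in the table: 37 of complex I, 4 of complex II, 8 of complex III, 18 of complex IV and 17 of complex V. The complex was likewise assigned by symbol and not by the protein's place in the chain. Atp5s and Atp5sl, which RefSeq names Dmac2l and Dmac2, were thus counted in complex V, and Ndufa4 in complex I. No count was found in any library for Cox7b2 and Cox8c, and the other 82 members passed the filter on low counts, beside 14567 genes in all.

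The chain sits in the inner mitochondrial membrane. Complexes I and II pass electrons from NADH and from succinate to ubiquinone, complex III passes them on to cytochrome c, and complex IV gives them to oxygen. Complexes I, III and IV pump protons while they do so, and complex V, the ATP synthase, uses the proton gradient to make ATP. Colonocytes depend on this pathway because they burn butyrate from the gut bacteria.

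All libraries came from wild-type C57BL/6 mice and fall into 4 labelled groups of 2. Mice of the NC group received saline and no dextran sulfate sodium (DSS), a detergent-like polysaccharide that injures the gut lining when drunk. The PC group received 3% DSS for 6 days. The Ex group was gavaged daily for 3 weeks with exosomes of bovine colostrum, which are vesicles shed into the first milk, at 1 mg a day, and had no DSS, and the ExDSS group received the same exosomes and then DSS. The gut region is not stated. It is also not stated whether each library of a pair is its own mouse, and the p-values therefore cover the variation among libraries only, part or all of which could be technical. In such whole-tissue RNA, fewer cells of a type and less RNA per cell cannot be told apart.

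The libraries were uneven, and some went against their labels. Total counts were between 8813622 and 12308537 in 7 libraries and 1163147 in Ex 2, of which the ribosomal transcript Rn45s made 53.5%. Between 9825 and 12683 genes were detected in NC 2, ExDSS 1 and ExDSS 2, against 16123 to 16790 in NC 1, PC 1, PC 2 and Ex 1. Rn45s parted the same libraries, with 0.407% to 0.874% of all counts in the former and 5.12% to 13.1% in the latter. The 15 pancreatic acinar markers made 9.15% and 20.5% of all counts in NC 2 and ExDSS 1, against at most 0.0617% elsewhere. The 9 neutrophil markers summed to 1891 to 2970 CPM (counts scaled to a common library size) in the libraries labelled NC and ExDSS and to 5.96 to 9.31 CPM in those labelled PC and Ex, so the untreated group had the higher level and the DSS group the lower. Whether labels were exchanged between groups cannot be told from these files, and an exchange of NC and PC would turn every direction of PC against NC and change the other comparisons, so all directions below hold for the libraries as labelled. All 8 colonocyte markers were detected in every library, with sums of 5947 to 17888 CPM in 7 libraries and 84.9 CPM in Ex 2. The part of these differences in the results below was not tested. Levels are given as CPM scaled by edgeR's TMM factors unless stated otherwise. Because the kit reads transcripts near their 3′ ends and the counts carry no length term, levels of single genes were compared across libraries. Where genes are set beside each other, as in shares of the chain or of a gene family and in rankings by mean, the values compare counts.

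Short stretches of promoter show one feature that several members share. Mitochondrial genes are often read under nuclear respiratory factor 1 (NRF1), which binds a GC-rich palindrome. The stretches below are the RefSeq promoters (GRCm38.p6) of the members with the letters GCGCATGCG, on either strand, in the 250 bases before the start, with up to 10 bases on each side. Capitals mark the motif, or the overlap of its forms on both strands. They are Ndufa8 (chr2:36049339-36049357, minus strand), Ndufa11 (chr17:56717692-56717721, plus strand), Cox6a1 (chr5:115349101-115349130, minus), Atp5g2 (chr15:102671070-102671099, minus), Atp5k (chr5:108434430-108434459, minus) and Atp5l (chr9:44920965-44920992, minus).
Ndufa8: tcgctggagaCGCATGCGC
Ndufa11: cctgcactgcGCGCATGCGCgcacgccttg
Cox6a1: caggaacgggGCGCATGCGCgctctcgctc
Atp5g2: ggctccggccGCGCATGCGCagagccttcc
Atp5k: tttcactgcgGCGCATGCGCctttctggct
Atp5l: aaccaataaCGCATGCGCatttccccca

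Over the whole promoter window of 300 bases, 250 before and 50 after the start, 69 of the 84 members had an entry, and 8 of them (11.6%) held this motif, against 1.95% of 27025 genes. Searched on both strands in the same way, the ETS motif CCGGAAGT was present in 5 members (7.25%, against 4.31%), and the YY1 motif AAGATGGCG in 8 (11.6%, against 1.64%). At least 1 of the 3 motifs was found in 20 members (29%, against 7.48%). The share depended on the window. Within the 250 bases before the start alone, a window chosen after the first counts had been seen, 11 members (15.9%, against 5.36%) held a motif, and the YY1 motif was left in 2. A match is a description of letters and not evidence of binding. For comparison, the 250 bases before Atp5g3, the c-subunit gene whose level differed most between libraries, held none of the 3 (chr2:73911327-73911576, minus strand).
Atp5g3: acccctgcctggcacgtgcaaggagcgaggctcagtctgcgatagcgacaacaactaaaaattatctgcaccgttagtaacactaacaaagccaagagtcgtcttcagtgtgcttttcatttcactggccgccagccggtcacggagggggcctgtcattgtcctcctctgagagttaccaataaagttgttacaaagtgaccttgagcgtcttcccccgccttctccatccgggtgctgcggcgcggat

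The chain as a whole took 2.18% to 4.15% of all counts outside Ex 2. Its genes made 3.40% and 3.50% of all counts in the NC libraries, 4.15% and 3.90% in PC, 3.86% and 0.522% in Ex, and 2.18% and 2.88% in ExDSS. Exact Clopper-Pearson 95% intervals ran from 3.39% to 3.41% in NC 1 and from 0.509% to 0.535% in Ex 2, and cover counting error only. The PC libraries stood highest and the ExDSS libraries below all others except Ex 2. After TMM scaling the order changed: the summed level was 33372 ± 10840 CPM (SD, n = 2) in NC, 31247 ± 879 in PC, 21878 ± 18154 in Ex and 27464 ± 1976 in ExDSS. With RLE scaling factors the means of PC and ExDSS were nearly level, at 27731 and 27537 CPM. With upper-quartile factors the mean of Ex, at 25705 CPM, stood above that of ExDSS, at 24095 CPM. Acinar genes held 20.5% of the counts of ExDSS 1, 0.0617% of those of ExDSS 2 and 9.15% of those of NC 2. Their part in the chain's share was not tested.

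**Figure D1:**
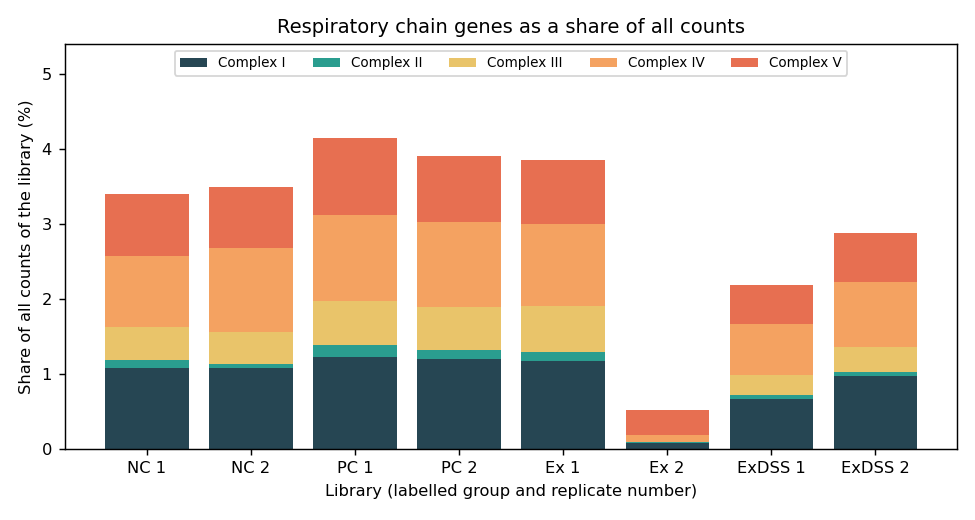
Share of all counts of each library (y axis, percent) taken by the genes of complexes I to V (stacked colours), for the 8 libraries by labelled group. The other bars reach between 2.18% and 4.15%, and Ex 2 reaches 0.522%, most of it complex V.

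The share of each complex in the chain was compared in the 7 libraries other than Ex 2. Complex I held 29.6% to 33.5% of the chain's counts there, complex III 11.6% to 15.7%, complex IV 27.6% to 31.8% and complex V 22.1% to 24.7%. Complex II, the only complex whose subunits are all nuclear, held 1.80% in NC 2 to 3.73% in PC 1. In Ex 2 complex V held 64.4% and a single gene, Atp5g3, gave 38.7% of the 6072 counts of the chain; 50 members had fewer than 10 counts there.

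No member passed the test in any of the 5 comparisons. With edgeR's quasi-likelihood test and Benjamini-Hochberg adjustment over all genes, 0 of 82 members were called in PC against NC (background 0% of genes), in ExDSS against PC (background 0%), in Ex against NC (background 0%) and in ExDSS against Ex (background 0%). The difference between the DSS differences with and without exosomes called 0 members, against a background of 0.288% (42 genes). The median log2 fold change of the members lay near that of all genes in PC against NC (0.11 against 0.10) and in ExDSS against PC (-0.44 against -0.51). It was -0.54 against -0.27 in Ex against NC and 0.31 against -0.29 in ExDSS against Ex, and both values turned sign without Ex 2 (0.21 and -0.42). The scaling moved the median of all genes as well: in Ex against NC it was -0.49 when libraries were scaled by total counts alone and 0.11 by the upper quartile, and the members' median there was -0.55 and -0.24. In ExDSS against Ex the members' median was -0.01 with upper-quartile factors, where that of all genes was -0.72.

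**Figure D2:**
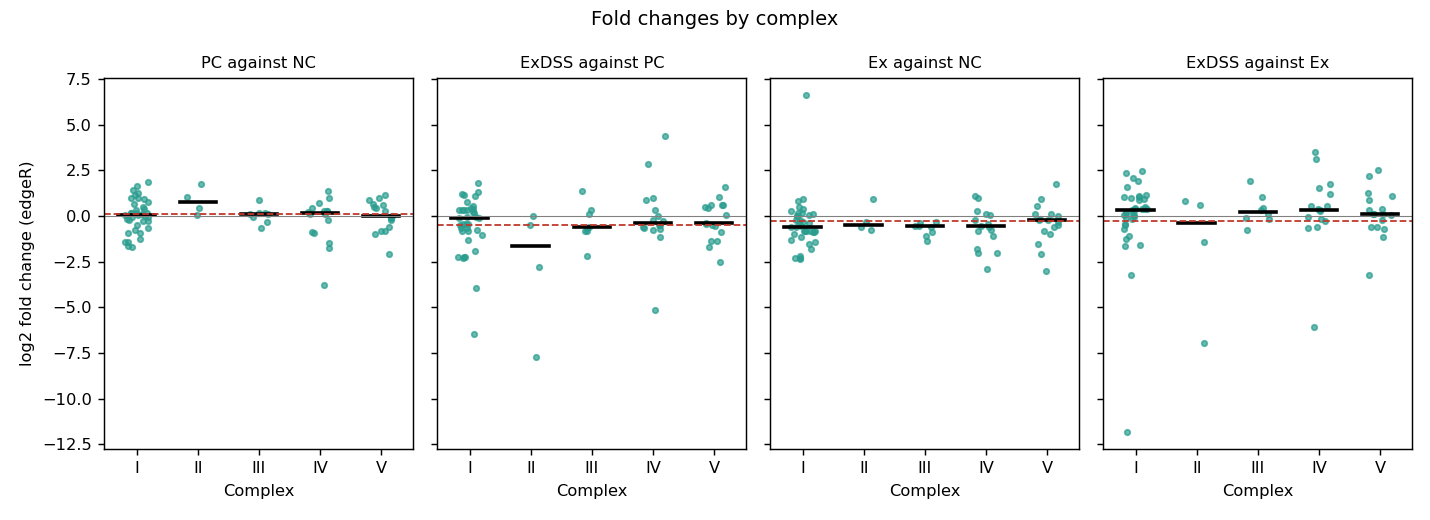
Fitted log2 fold changes (y axis, edgeR) of the 82 tested members by complex (x axis) in 4 comparisons; each point is a gene, the black bar is the median of the complex, the red dashed line the median of all 14567 genes and the grey line zero. Most complex medians lie within 1 unit of zero; complex II in ExDSS against PC lies at -1.64, and the farthest point is Ndufa4l2 in ExDSS against Ex at -11.83.

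At an unadjusted p under 0.05 in the same edgeR fit, PC against NC had 0 members, against a background of 0.686% of genes higher and 1.81% lower. ExDSS against PC had 3 lower (3.66% of members, background 16.1%), which were Sdhd, Ndufa1 and Ndufa4l2, and 0 higher (background 2.84%). Ex against NC had 1 higher, Ndufa4l2 (background 2.89%), and 0 lower (background 2.42%). ExDSS against Ex had 3 lower, Ndufa4l2, Sdhd and Cox6a2 (background 16.2%), and 0 higher (background 3.55%). Of these, Cox6a2 rests on few counts, with 12 and 0 in Ex and 0 in both ExDSS libraries. Ndufa4l2 in ExDSS against PC likewise rests on 8 and 20 counts in PC and 0 in both ExDSS libraries. The difference of the DSS differences had Cox4i2 higher (background 5.86%) and Ndufa4l2, Sdhd and Ndufa1 lower (background 13%). The members' share of such genes was below the background in each direction of all 5 comparisons, a difference that was not tested. DESeq2, run as an alternative, called 0 members in PC against NC (background 0.0498% higher and 0.806% lower). It called Sdhd lower in ExDSS against PC (background 8.23%, and 2.67% for higher) and Ndufa4l2 higher in Ex against NC (background 2.31%, and 1.24% for lower). It called Ndufa4l2, Sdhd and Atp5g3 lower in ExDSS against Ex (background 11.8%, and 2.8% for higher). In the difference of the DSS differences it called Ndufa4l2 and Sdhd lower (background 7.71%, and 4.48% for higher).

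The spread between the 2 libraries of a group differed from group to group, while the edgeR fit shares its estimate of the spread among the 4 groups (common dispersion 1.173). Between PC 1 and PC 2, 1 of 82 members (1.22%) differed by more than 2-fold, against 4.42% of all genes. The same count was 37 (45.1%, against 57.7%) in NC, 73 (89%, against 81.7%) in Ex and 24 (29.3%, against 54.6%) in ExDSS. Both PC libraries lay above both NC libraries for 30 members (36.6%, against a background of 31%) and below for 11 (13.4%, background 23.6%). ExDSS lay wholly below PC for 42 members (51.2%, background 45.4%) and wholly above for 17 (20.7%, background 18.9%). Ex lay wholly below NC for 7 members (8.54%, background 22.9%) and above for 1 (background 11.1%), and ExDSS lay above Ex for 13 (15.9%, background 17%) and below for 6 (7.32%, background 17%).

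**Figure D3:**
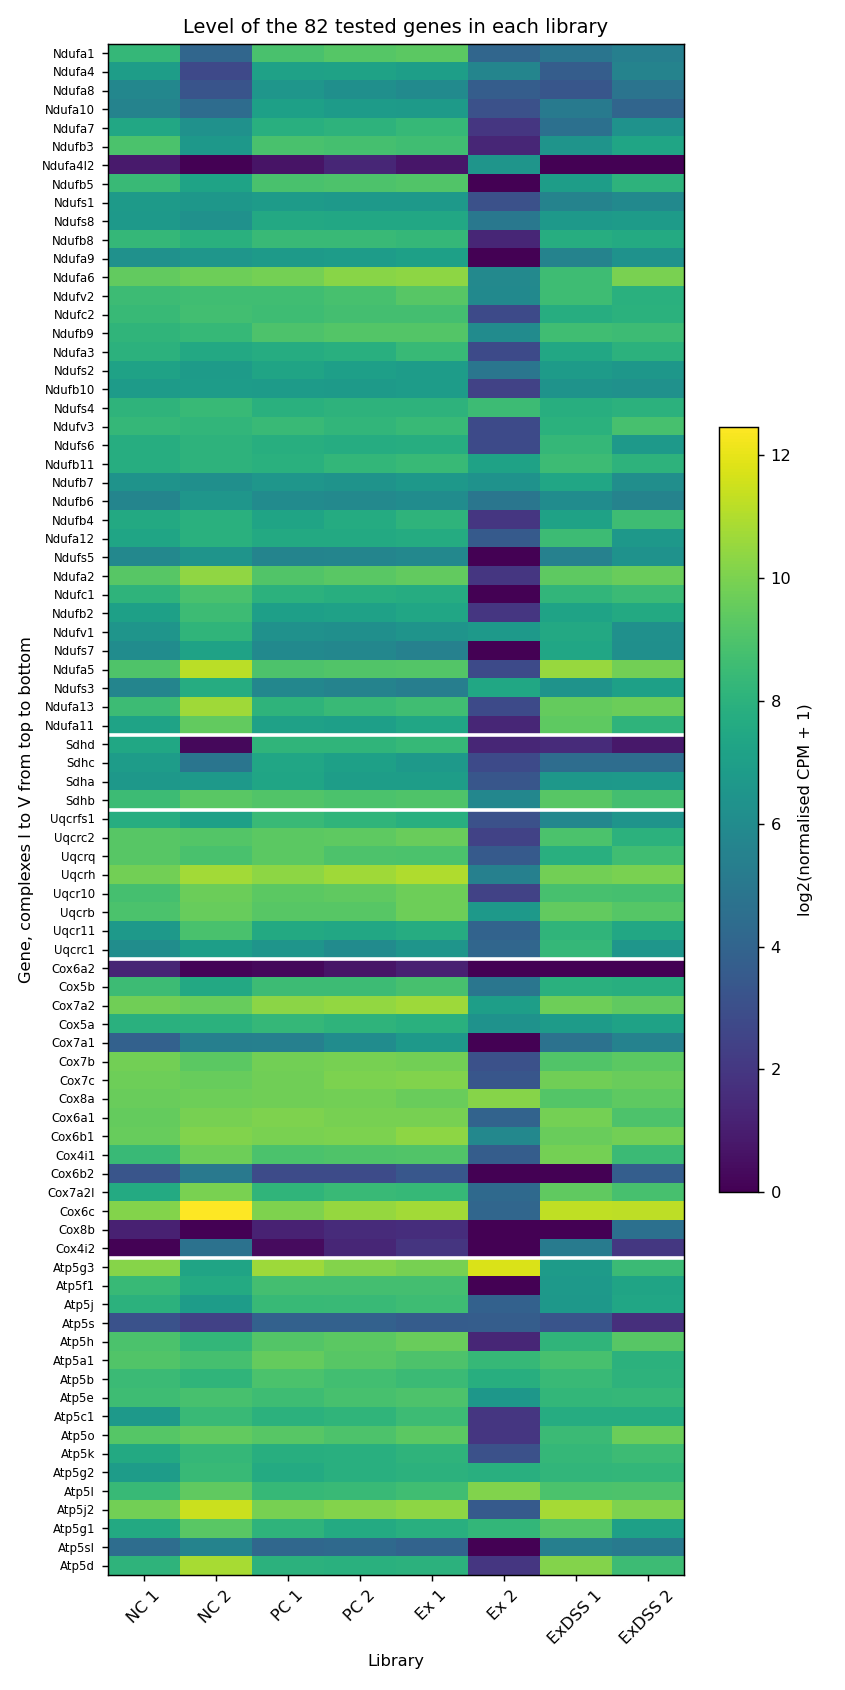
Level of the 82 tested members (rows, complexes I to V from top to bottom, parted by white lines) in the 8 libraries (columns), as log2 of TMM-scaled CPM plus 1. PC 1 and PC 2 look alike, Ex 2 is dark for most genes, and Sdhd, near the middle, is dark in NC 2, Ex 2 and both ExDSS libraries.

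The complex II genes differed from each other in their pattern over the libraries. Succinate dehydrogenase joins a flavin-bearing catalytic subunit (Sdha) and an iron-sulfur subunit (Sdhb) to a pair of membrane anchors (Sdhc and Sdhd) that carry the ubiquinone site. Sdhd (chr9:50596340-50603849 in the table's coordinates) stood at 171 and 0.191 CPM in NC, 281 and 288 in PC, 325 and 1.49 in Ex, and 1.92 and 0.754 in ExDSS. It was thus high in NC 1, PC 1, PC 2 and Ex 1 and near 0 in the other four, with both ExDSS libraries below both PC libraries and the NC and Ex groups split. The fitted log2 change in ExDSS against PC was -7.74 (SE 2.40, edgeR adjusted p = 0.228, DESeq2 adjusted p = 0.00349). In ExDSS against Ex it was -6.94 (SE 2.32, edgeR adjusted p = 0.236), and without Ex 1 it was 0.027.

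The levels of Sdhc, the other anchor gene, were 116 and 27.5 CPM in NC, 164 and 134 in PC, 105 and 5.96 in Ex, and 21.3 and 21.0 in ExDSS. Both ExDSS libraries lay below both PC libraries, and NC 2 lay near the ExDSS level. The log2 change in ExDSS against PC was -2.82 (SE 1.43, edgeR adjusted p = 0.293). Sdha, in contrast, stood at 98.2 and 104 CPM in NC, 157 and 121 in PC, 121 and 8.93 in Ex, and 98.7 and 103 in ExDSS. Sdhb stood at 374 and 607 CPM in NC, 541 and 488 in PC, 514 and 53.6 in Ex, and 594 and 422 in ExDSS. Apart from Ex 2, the catalytic and iron-sulfur genes stayed within a narrow band in which the ExDSS libraries were not near 0.

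**Figure D4:**
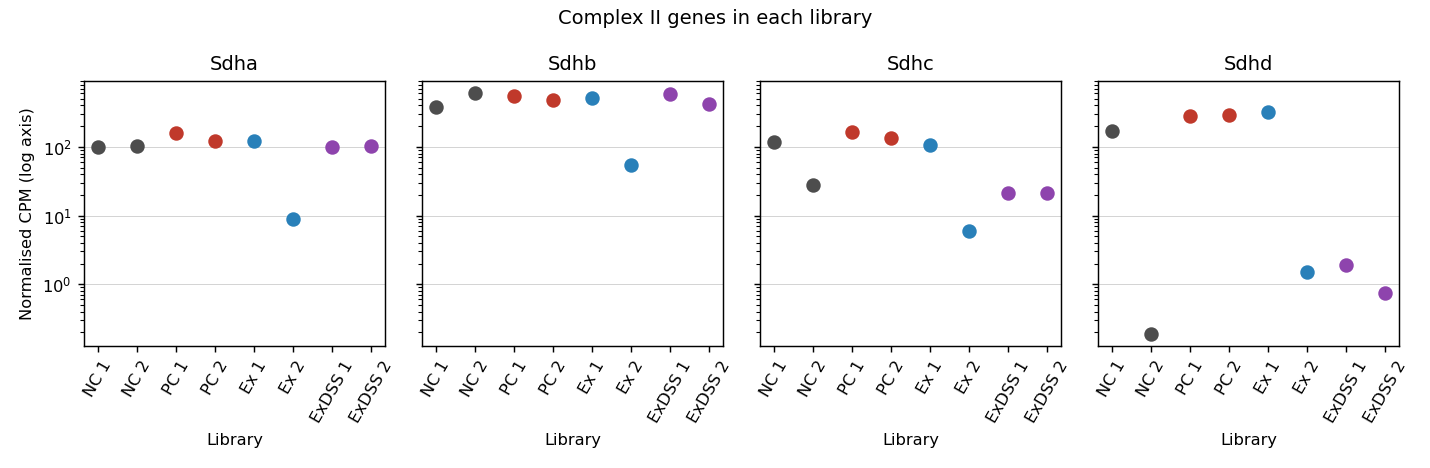
TMM-scaled CPM (y axis, log scale) of the 4 complex II genes in each of the 8 libraries, coloured by labelled group. Sdhd lies between 171 and 325 CPM in NC 1, PC 1, PC 2 and Ex 1 and below 2 CPM in the other four; Sdha and Sdhb are low only in Ex 2.

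Few members were nearly absent from a library while present in the others. On the scale of CPM of the library's total counts, without TMM factors, 74 members had at least 20 CPM in each of NC 1, PC 1, PC 2 and Ex 1. Of these, Sdhd alone was under 1 CPM in NC 2 and in ExDSS 2 (1.35% each, against 2.19% and 1.98% of all genes). No member was that low in ExDSS 1, against 10.9% of all genes, and 11 were in Ex 2 (14.9%, against 28.2%), where under 1 CPM on this scale means at most 1 count. NC 2 had 2 Sdhd counts, ExDSS 1 had 14 and ExDSS 2 had 9.

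Among the accessory subunits of complex I, some stood lower and some higher in NC 2 and the ExDSS libraries than in most others. Ndufa1, a small membrane subunit needed for assembly, stood at 319 and 16.0 CPM in NC, 471 and 570 in PC, 629 and 16.4 in Ex, and 27.7 and 40.5 in ExDSS. It was high in NC 1, PC 1, PC 2 and Ex 1 and the groups PC and ExDSS did not overlap. Its log2 change in ExDSS against PC was -3.93 (SE 1.71, edgeR adjusted p = 0.229). Ndufa10 ranged from 110 to 135 CPM in PC 1, PC 2 and Ex 1 and from 7.44 to 47.1 CPM elsewhere, and its log2 change in PC against NC was 1.87 (SE 1.37, edgeR adjusted p = 1).

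Ndufa5, an accessory subunit of the matrix arm, stood at 514 and 2286 CPM in NC, 500 and 531 in PC, 553 and 5.96 in Ex, and 1508 and 906 in ExDSS. Ndufa11, a membrane subunit whose promoter stretch is printed above, stood at 150 and 694 CPM in NC, 138 and 131 in PC, 163 and 1.49 in Ex, and 660 and 278 in ExDSS. Ndufa13, also known as GRIM-19, stood at 373 and 1638 CPM in NC, 271 and 345 in PC, 399 and 5.96 in Ex, and 729 and 806 in ExDSS. For all 3 genes NC 2 and the ExDSS libraries were high, ExDSS did not overlap PC, and NC spanned it. Their log2 changes in Ex against NC were -2.32, -2.35 and -2.31, each with an edgeR adjusted p of 0.999. Ndufa6 ranged from 387 to 1283 CPM outside Ex 2, and Ndufa2 from 539 to 1323 CPM.

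Ndufa4 and Ndufa4l2 encode related small proteins, the first now placed in complex IV and the second induced by hypoxia in other tissues. Ndufa4 stood at 119 and 5.62 CPM in NC, 140 and 142 in PC, 127 and 49.1 in Ex, and 11.9 and 47.0 in ExDSS, so it was lowest in NC 2 and ExDSS 1. Ndufa4l2 stood at 0.862 and 0 CPM in NC, 0.582 and 1.57 in PC, 0.715 and 89.3 in Ex, and 0 in both ExDSS libraries. The high value rests on 60 counts in Ex 2 alone. Ndufa4l2 overlaps Shmt2 on the opposite strand, and the sources used here do not state that strand was used in counting. Shmt2 had 241 counts in Ex 2, 1099 in ExDSS 1, 175 in ExDSS 2 and 6 to 106 elsewhere, while both ExDSS libraries had no Ndufa4l2 count. The part of Shmt2 reads in the Ndufa4l2 value was not tested. For Ndufa4l2 the log2 change in Ex against NC was 6.62 (SE 2.68, edgeR adjusted p = 0.93, DESeq2 adjusted p = 0.0129). It was 0.72 without Ex 2 and -0.26 without both NC 2 and Ex 2.

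Complex III joins 2 core proteins, the Rieske iron-sulfur protein and small subunits to mitochondrially encoded cytochrome b. Uqcrh, the hinge protein that docks cytochrome c1, stood at 893 and 1683 CPM in NC, 1287 and 1617 in PC, 2014 and 41.7 in Ex, and 887 and 983 in ExDSS. Both ExDSS libraries lay below both PC libraries, and NC overlapped both. Uqcrfs1, the Rieske protein, stood at 214 and 133 CPM in NC, 344 and 282 in PC, 228 and 7.44 in Ex, and 53.5 and 86.3 in ExDSS, with a log2 change in ExDSS against PC of -2.16 (SE 1.42, edgeR adjusted p = 0.479). The core gene Uqcrc1 was highest in ExDSS 1 at 310 CPM, against 16.4 to 124 CPM in the other libraries, and its log2 change in ExDSS against Ex was 1.92 (SE 1.31, edgeR adjusted p = 0.443), with 0.80 without ExDSS 1 and 3.84 without Ex 1. Uqcrb, Uqcr10 and Uqcrc2 lay between 256 and 832 CPM outside Ex 2, Uqcrq between 234 and 628 CPM and Uqcr11 between 103 and 467 CPM.

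Complex IV takes electrons from cytochrome c, and its nuclear subunits surround a mitochondrially encoded core. Cox6c, a small subunit with a single membrane helix, stood at 1149 and 5626 CPM in NC, 1044 and 1422 in PC, 1673 and 16.4 in Ex, and 2435 and 2418 in ExDSS. ExDSS lay above PC and NC 2 above all. Cox8a stood at 770 and 845 CPM in NC, 856 and 891 in PC, 776 and 1187 in Ex, and 562 and 667 in ExDSS, and was among the few members not low in Ex 2. Cox6b1 and Cox7a2 lay between 694 and 1610 CPM outside Ex 2, and Cox5a between 115 and 314 CPM.

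Several complex IV subunits have a second gene used in particular tissues. Cox4i2, the lung form of subunit 4, made 0.0194% and 2.93% of the counts of Cox4i1 and Cox4i2 in NC, 0.0596% and 0.282% in PC, 0.514% in Ex 1, and 3.63% and 0.832% in ExDSS; Ex 2 had 8 counts in all. Its levels were 0.0663 and 25.1 CPM in NC, 0.291 and 1.49 in PC, 2.76 and 0 in Ex, and 34.8 and 3.01 in ExDSS. The high libraries were NC 2 and ExDSS 1, and ExDSS did not overlap PC. Its log2 change in ExDSS against PC was 4.39 (SE 2.51, edgeR adjusted p = 0.376), with 1.74 without ExDSS 1. In PC against NC it was -3.80 (SE 2.44, edgeR adjusted p = 1) but 3.53 without NC 2. Cox4i2 overlaps Bcl2l1 on the opposite strand, which stood at 145 and 151 CPM in NC 2 and ExDSS 1 and at 15.5 to 74.0 CPM elsewhere.

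Cox7a2l, which takes part in joining complexes III and IV, made 55.6%, 44.5% and 38.4% of the counts of the Cox7a genes in NC 2, ExDSS 1 and ExDSS 2. In the other five libraries it made 12.6% to 19.4%. Cox7a1, the heart and muscle form, made 1.29% to 5.19% outside Ex 2, and the smooth muscle markers summed to 3114 to 6813 CPM there. The skeletal or heart muscle markers summed to 320 CPM in ExDSS 1, to 60.9 CPM in ExDSS 2 and to at most 25.3 CPM elsewhere. Cox7a1 made 1.60% in ExDSS 1 and 3.76% in ExDSS 2, and its highest share, 5.19%, was in Ex 1. The part of muscle cells in the Cox7a1 share was not tested. Cox8b, a form of muscle and brown fat, made 3.36% of the Cox8 counts in ExDSS 2 and at most 0.276% in every other library. ExDSS 1, where the skeletal or heart muscle markers were highest, had no Cox8b count. The 8 adipocyte markers summed to 2039 CPM in ExDSS 2, to 1378 CPM in Ex 1 and to at most 407 CPM elsewhere. Of these markers, 4 were at 0 in ExDSS 2. The part of muscle or fat cells in the Cox8b value was not tested. Cox6a2 and Cox6b2, forms of muscle and testis, had at most 0.200% and 2.83% of their families' counts.

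In complex V the genes of the c subunit differed in their share from library to library. The ring of c subunits turns in the membrane as protons pass, and Atp5g1, Atp5g2 and Atp5g3 encode the same mature protein with different import sequences. Atp5g3 stood at 1180 and 154 CPM in NC, 1569 and 1120 in PC, 971 and 3496 in Ex, and 115 and 354 in ExDSS. Both ExDSS libraries lay below both PC and both Ex libraries, and NC was split. The log2 change was -3.25 in ExDSS against Ex (SE 1.62, edgeR adjusted p = 0.265, DESeq2 adjusted p = 0.0289; -2.04 without Ex 2) and -2.52 in ExDSS against PC (SE 1.57, edgeR adjusted p = 0.44).

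Atp5g3 made 79.4% and 13.9% of the counts of the 3 genes in NC, 77.3% and 72.5% in PC, 66.9% and 86.7% in Ex, and 11.9% and 44.4% in ExDSS. Atp5g1 took the largest share in NC 2 (56.0%) and ExDSS 1 (57.6%), against 7.54% to 17.1% elsewhere. Atp5g2 made 30.1%, 30.5% and 38.5% in NC 2, ExDSS 1 and ExDSS 2, against 5.73% to 17.5% elsewhere. The libraries with a small Atp5g3 share were those with fewer detected genes other than Ex 2, and the acinar genes were high in NC 2 and ExDSS 1 but not in ExDSS 2.

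**Figure D5:**
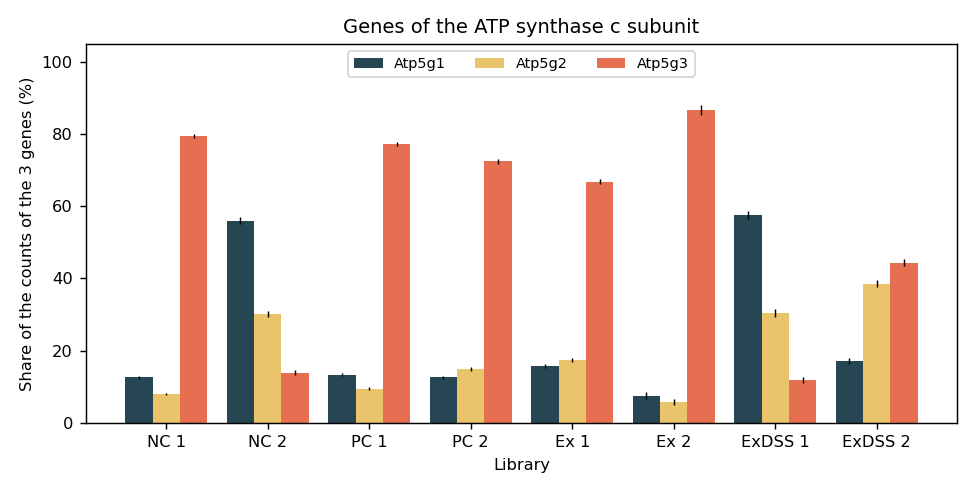
Share of the counts of Atp5g1, Atp5g2 and Atp5g3 (y axis, percent of the 3 genes together) in each library, with exact Clopper-Pearson 95% intervals as error bars. Atp5g3 makes 66.9% to 86.7% in NC 1, PC 1, PC 2, Ex 1 and Ex 2 and 11.9% to 44.4% in NC 2, ExDSS 1 and ExDSS 2.

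Atp5d, the delta subunit of the central stalk, stood at 275 and 1833 CPM in NC, 256 and 237 in PC, 254 and 2.98 in Ex, and 1141 and 372 in ExDSS. ExDSS lay above PC and Ex, and Ex lay below NC. The log2 change in Ex against NC was -3.03 (SE 1.69, edgeR adjusted p = 0.96), with -1.09 without NC 2 and -8.58 without Ex 1. Atp5j2 stood at 903 and 2853 CPM in NC, 943 and 1149 in PC, 1306 and 10.4 in Ex, and 1765 and 1056 in ExDSS. Atp5l stood at 1100 CPM in Ex 2 and at 321 to 686 CPM in the others. Atp5o lay between 354 and 814 CPM outside Ex 2 and Atp5f1 between 106 and 426 CPM. Atp5sl, named Dmac2 by RefSeq and placed in complex V by symbol only, lay between 14.8 and 47.0 CPM there.

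The split of NC 2, ExDSS 1 and ExDSS 2 from NC 1, PC 1, PC 2 and Ex 1 was also counted over all members, with Ex 2, the library with the fewest detected genes, left out. All of NC 2, ExDSS 1 and ExDSS 2 lay below all of NC 1, PC 1, PC 2 and Ex 1 for 25 members (30.5%, near the background of 27.3% of all genes). They lay above for 15 members (18.3%, background 10.4%). Sdhd, Ndufa1, Ndufa4, Atp5g3 and Sdhc were among the former, and Cox4i2, Atp5d, Ndufa11, Ndufa13 and Ndufa5 among the latter. This split was seen in the data and crosses the labelled groups, so the members' part in a treatment difference and in a library difference cannot be told apart in these comparisons.

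One library decided the calls that could be made against the exosome group. Without Ex 1, which leaves Ex 2 alone and assumed to vary like the other groups, edgeR called 49 members lower in Ex against NC (10.4% of all genes called), 50 higher in ExDSS against Ex (12.2%) and 37 higher in the difference of the DSS differences (10.8%). With Ex 1 and without Ex 2 it called none of them.

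The genes around the chain were read from lists of related function. None of the 8 lists had a member called by edgeR in any comparison. The regulators of mitochondrial transcription and biogenesis had a median log2 change of -2.24 in ExDSS against PC over 16 genes (all genes -0.51). Of the 16, 4 were above zero and 3 were lower at an unadjusted p under 0.05, where 16.1% of all genes were. They summed to 219 and 102 CPM in NC, 329 and 341 in PC, 313 and 1322 in Ex, and 157 and 136 in ExDSS. The untreated library NC 2 was thus the lowest, and 6 and 5 of the genes were at 0 in ExDSS 1 and ExDSS 2. Ppargc1b, a coactivator of the programme, stood at 18.0 and 2.67 CPM in NC, 29.6 and 32.8 in PC, 36.8 and 52.1 in Ex, and 0 in both ExDSS libraries (edgeR adjusted p = 0.228 in ExDSS against PC). The glycolysis and lactate genes lay the other way, with a median of 0.85 in ExDSS against PC and 15 of 17 above zero. Their sums were 2322 and 4454 CPM in NC, 1792 and 1575 in PC, 1807 and 932 in Ex, and 4496 and 3022 in ExDSS, so NC 2 stood with the ExDSS libraries. Slc16a3, a lactate exporter, stood at 29.8 and 48.5 CPM in NC, 2.76 and 2.67 in PC, 4.19 and 1.49 in Ex, and 21.7 and 34.6 in ExDSS, an order shared by the neutrophil markers, whose part in it was not tested.

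Assembly factors had medians in ExDSS against PC of -0.95 over 15 factors of complex I and -0.51 over 32 of complexes II to V, against -0.51 over all genes. Pet100, a complex IV assembly factor, stood at 141 and 2160 CPM in NC, 86.5 and 115 in PC, 174 and 4.47 in Ex, and 2551 and 780 in ExDSS. Cox17, which carries copper to complex IV, stood at 185 and 22.7 CPM in NC, 193 and 215 in PC, 227 and 40.2 in Ex, and 0.137 and 21.5 in ExDSS. Etfa, which feeds electrons from fatty acid oxidation to the chain, stood at 26.5 and 1.33 CPM in NC, 45.9 and 47.4 in PC, 44.1 and 2.98 in Ex, and 0.686 and 0.0837 in ExDSS. All 3, which were named for a small p, differed between PC and ExDSS without overlap. Over all genes, ExDSS lay wholly below PC for 45.4% and wholly above for 18.9%. The edgeR adjusted p-values of Pet100, Cox17 and Etfa in ExDSS against PC were 0.236, 0.228 and 0.228. The 11 tested subunits and carriers outside the name rule, among them Etfa, had a median of -0.38. The tricarboxylic acid cycle enzymes had a median of -0.65 over 17 genes, the carriers and channels -0.27 over 13, and the hypoxia response genes 0.76 over 13.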

How the data were processed

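Gut RNA of 8 libraries, 2 in each of 4 labelled groups, was sequenced with a 3′ kit. The deposited file holds raw read counts per gene made by the authors. Per the submitters' processing notes Bowtie2, bedtools, edgeR and mm9 were used, with no versions given; the coordinates in the file instead match GRCm38, where 83 of 83 members found by name overlap their GENCODE gene. Lines named as calendar dates hold 0.135% of the counts.

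All genes were fitted together in R 4.3.3 with edgeR 4.0.16 (robust quasi-likelihood test, TMM factors, filterByExpr with a minimum count of 10, 1 coefficient per group, 4 residual degrees of freedom), and p-values were adjusted over 14567 genes. A call is an adjusted p under 0.05. Standard errors are the fold change divided by the root of F. The script was tested on simulated data. Alternatives were DESeq2 1.42.0, other scaling factors, no filter, a replicate block and each library left out. Promoters are RefSeq's, and 15 members had no entry.

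Named members are the 4 with the highest mean in each complex, the 2 with the smallest p in each comparison and complex at a mean of at least 5 CPM, the paralogue families and all Sdh genes; in each other list, the 2 with the smallest p at the same mean, of which some are given here. The members, lists and tests were chosen with earlier results of these data known.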

Additional observations from a re-analysis of the deposited data

How the results depend on the processing

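No member was called under RLE, total-count or upper-quartile scaling or with TMM computed without Rn45s and acinar genes. Without the count filter, all-gene calls were 45 in PC against NC, 132 in ExDSS against PC, 55 in Ex against NC, 223 in ExDSS against Ex and 350 in the difference of differences, of which 0, 1, 0, 2 and 2 were members. DESeq2 gave 86, 1526, 337, 2046 and 1672 calls, with 0, 1, 1, 3 and 2 members. The replicate numbers do not pair the libraries (correlations of 0.05, 0.05, -0.04 and -0.07); with the replicate block edgeR called 41 genes in ExDSS against PC, 28 in ExDSS against Ex and 161 in the difference of differences, of which 1, 0 and 1 were members (Sdhd). RLE and total-count scaling gave 67 and 6 all-gene calls in the difference of differences, against 42. The members' median log2 change was 0.39 in PC against NC and -0.88 in ExDSS against PC with total counts, and -0.26, -0.51 and -0.26 in ExDSS against PC with RLE, upper-quartile factors and DESeq2.

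Over the fits that leave out 1 library, together with 1 that leaves out both NC 2 and Ex 2 and was chosen after seeing the data, calls over all genes ran from 0 to 4, 0 to 6, 0 to 1596, 0 to 1883 and 0 to 1663 in the 5 comparisons in the order above, and member calls were 0 in the first 2 and ran from 0 to 49, 0 to 50 and 0 to 37 in the others. Member medians ran from 0.079 to 0.27, -0.47 to -0.23, -5.13 to 0.34, -0.49 to 4.33 and -0.69 to 4.40. Single genes whose direction turned were, in PC against NC, Uqcr11 (-1.34 to 0.84), Cox4i2 (-5.37 to 3.56) and Cox6c (-2.18 to 0.11); in Ex against NC, Ndufa4l2 (-0.26 to 11.50), Ndufa11 (-8.26 to 0.12), Sdhb (-3.32 to 0.46), Sdhd (-5.97 to 9.66), Uqcr11 (-4.38 to 1.01), Cox4i2 (-9.97 to 5.17) and Cox7a2l (-5.18 to 0.74); in ExDSS against Ex, Ndufa1 (-4.23 to 1.25), Sdhd (-7.97 to 0.027) and Sdhc (-2.34 to 2.02); and in the difference of differences, Sdhc (-3.77 to 0.91), Uqcr11 (-0.71 to 4.73) and Cox4i2 (-0.80 to 14.41). With the promoter search limited to the 250 bases before the start, also chosen after the first counts were seen, 11 members held a motif instead of 20. The cause of these changes was not tested, other than the fewer samples. Depth limits Ex 2, where 14 members had no count and 3 counts are worth 4.47 CPM.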
